A study of Homo sapiens and Mus musculus with 16 samples.

Results

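The genes described here are 8 targets of the transcription factor SREBP2, 7 of them enzymes on the route from acetyl-CoA to cholesterol (HMGCS1, MVD, IDI1, FDFT1, SQLE, LSS and DHCR7) and 1 a regulator of that route (INSIG1). They were chosen by name and not by their values, and the mRNA table lists all 8 among its 22314 genes. SK-HEP-1 is a human cell line, described by the study as hepatocellular carcinoma, and it was grown in DMEM with fetal bovine serum. Cells received 0.5 mg/ml of AcFBE, an ethanol extract of the fruiting body of the fungus Antrodia cinnamomea dissolved in DMSO, or DMSO alone. Poly(A) RNA was sequenced after 2 or 4 h, which gave 4 mRNA libraries named 2U and 4U (untreated, DMSO) and 2T and 4T (treated). Each condition has 1 mRNA library from 1 cell line, so no difference below has a replicate check or a p-value.

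Cholesterol is built from acetyl-CoA through mevalonate, isoprenoids, squalene and lanosterol. When sterols in the endoplasmic reticulum run low, the escort protein SCAP carries SREBP2 to the Golgi, where proteases release its active part, which then enters the nucleus and turns on these genes. When sterols are plentiful, INSIG proteins hold SCAP back, and since INSIG1 is itself a target of SREBP2 it closes a feedback loop that liver cells use to match synthesis to supply.

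Levels are given as FPKM, fragments per kilobase of exon scaled to the mapped fragments of the library, a unit that corrects for transcript length and so allows levels to be compared between genes. A ratio is the treated FPKM divided by the untreated FPKM on a log2 scale, with no pseudocount, and a gene is said to rise or fall only where the ratio is at least 2-fold. Ratios were taken for genes with a mean of at least 1 FPKM over the 4 libraries and a value above 0 in both libraries compared. In RNA from whole cultures, fewer cells that use a gene and less RNA of that gene per cell cannot be told apart.

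Some properties of the libraries bear on every value below. Of the 5445 genes with a mean of at least 1 FPKM, 94 (2U), 232 (2T), 29 (4U) and 31 (4T) were listed at 0. The columns of the 2 times had different lower limits: 2656 values in 2U and 1173 in 2T lay between 0 and 0.2 FPKM, and none did in 4U or 4T, whose lowest value above 0 was 0.2. The reason is not given in the sources used here, so low values and listed zeros at 2 h and at 4 h may not mean the same, and comparisons of the times carry this difference. No member had a value in that range. Genes that every cell uses also set 2U apart: ACTB, an actin, was at 653 FPKM in 2U and between 1827 and 2305 in the other libraries, and GAPDH, a glycolytic enzyme, at 19177 in 2U and between 36197 and 43767 elsewhere. For this reason the untreated library of the other time was also tried as the reference. Liver identity was checked by markers: 9 of 10 hepatocyte markers, among them ALB, APOA1, TTR and HNF4A, were listed at 0 in all 4 libraries, and SERPINA1, the tenth, was between 8.59 and 18.7 FPKM. Of 8 endothelial markers 7 were listed at 0 throughout, and ENG was between 8.65 and 24.8 FPKM. Of 6 mesenchymal markers, 4 reached a mean of 1 FPKM, among them VIM, an intermediate filament protein, between 6465 and 13625 FPKM. COL1A2 was listed at 0 throughout, and COL1A1 was at 0.271 FPKM in 4T and at 0 elsewhere. SERPINA1 was thus the only hepatocyte marker seen, although a listed 0 need not be an absence in this table. Of 5 leukocyte markers, 3 were listed at 0 in all libraries, and CD68 was between 8.80 and 13.9 FPKM.

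After 2 h of AcFBE, INSIG1 fell and MVD rose, and the other members with a ratio stayed within 2-fold. After 4 h, MVD, LSS and DHCR7 fell, IDI1 rose from a low level, and INSIG1, at 1.95-fold lower, lay just inside 2-fold. At 2 h, 1 of the 6 members with a ratio fell, against 18.7% of all 5211 genes compared, and 1 of 6 rose, against 22.6%. At 4 h, 3 of 7 fell, against 27.7% of 5392 genes, and 1 of 7 rose, against 16.4%. The gene that rose, IDI1, reached the minimum mean only through 2U, which is not in this comparison. HMGCS1, 2.02-fold higher at 4 h, was left out by the same minimum. With so few members these counts do not set the genes apart from the background. The median log2 ratio of the members was -0.57 at 2 h and -0.96 at 4 h, where the medians of all genes compared were 0.03 and -0.35. The level of each gene in each library, given next, shows that the members did not move as 1 block.

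**Figure D1:**
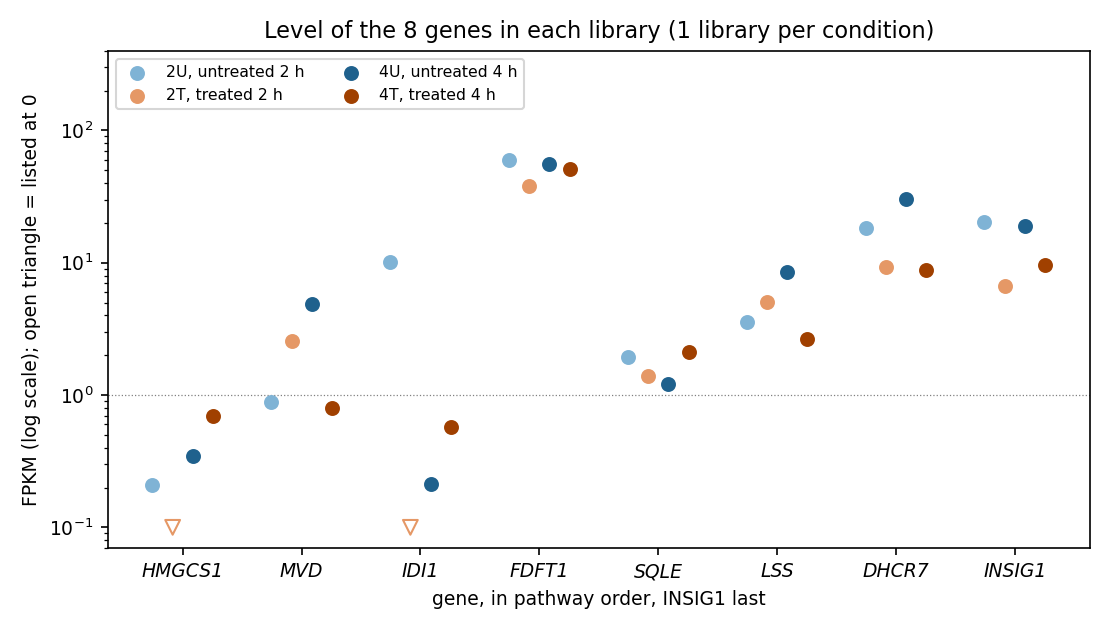
FPKM (log axis) of the 8 genes in the libraries 2U, 2T, 4U and 4T, 1 point per library, with open triangles at the bottom for genes listed at 0 and a dotted line at 1 FPKM. INSIG1, DHCR7 and FDFT1 lie lower in both treated libraries than in both untreated ones. MVD and LSS are high in 4U and low in 4T, and IDI1 is high in 2U alone.

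The order of the levels was nearly the same in all libraries. FDFT1 was the highest member in each, between 37.8 and 59.5 FPKM, followed by INSIG1 and DHCR7, which changed places between libraries, and then, apart from IDI1 in 2U, by LSS. MVD and SQLE also changed places, MVD being above SQLE in 2T and 4U and below it in 2U and 4T. HMGCS1 was the last or next to last in every library. With 1 library per condition, the spread behind each place in this order is not known.

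HMGCS1, which makes the HMG-CoA that is reduced to mevalonate (chr5:43287572-43313614, minus strand, in GRCh37), had the lowest mean of the members. Its FPKM was 0.208 in 2U against 0 in 2T, and 0.343 in 4U against 0.693 in 4T. The mean of 0.311 FPKM is below the minimum of 1, so no ratio of HMGCS1 is counted.

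MVD makes isopentenyl diphosphate from mevalonate diphosphate (chr16:88718343-88729569, minus strand). Its level was 0.883 FPKM in 2U against 2.56 in 2T, and 4.91 in 4U against 0.797 in 4T. The 2 highest values were thus 1 treated and 1 untreated library, and the groups overlapped. MVD rose 2.90-fold at 2 h (log2 ratio 1.54) and fell 6.16-fold at 4 h (log2 ratio -2.62), where only 1.41% of genes compared had a lower ratio. The untreated libraries themselves lay 5.56-fold apart, 4U being higher than 2U (log2 ratio 2.48). With 4U as the reference, MVD at 2 h was lower and not higher, at a log2 ratio of -0.94, and with 2U as the reference the value at 4 h was -0.15. Steps in the low values of 2U and 2T, described in the processing, put about 7 reads behind MVD in 2U and about 22 in 2T.

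IDI1 turns isopentenyl diphosphate into its isomer, the starter unit of all isoprenoids (chr10:1085092-1095059, minus strand). It was listed at 10.2 FPKM in 2U against 0 in 2T, and 0.213 in 4U against 0.571 in 4T. Only 2U was high, with about 156 reads by the same estimate, and the other untreated library was 47.6-fold lower, at a value next to the lowest one listed at 4 h (0.2 FPKM). No ratio was taken at 2 h because 2T was listed at 0. At 4 h IDI1 rose 2.68-fold, from that lowest level to one below 1 FPKM, so the size of either difference is uncertain. Against 2U, 4T was lower, at a log2 ratio of -4.15. FDPS, the next enzyme, which joins the isoprenoid units and is named here after its values were seen, was also listed at 0 in 2T, with 160 FPKM in 2U, 249 in 4U and 247 in 4T. Of the 2226 genes with a mean of at least 10 FPKM, 90 were at 0 in 2T and 40 in 2U, but 2 in 4U and 0 in 4T, so a listed 0 at 2 h is not read as an absence. IDI1 also overlaps the antisense gene IDI2-AS1 and has the processed pseudogenes IDI1P1, IDI1P2 and IDI1P3, so its reads may be shared with those copies and its values are uncertain.

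FDFT1 joins farnesyl units into squalene, the first step given over to sterols (chr8:11653082-11696904, plus strand). It was the most abundant member and varied the least, with 59.5 FPKM in 2U against 37.8 in 2T, and 55.4 in 4U against 51.1 in 4T. Both treated values lay below both untreated values. The difference was 1.57-fold at 2 h (log2 ratio -0.65) and 1.08-fold at 4 h (log2 ratio -0.12), within 2-fold at both times. The difference at 4 h turned with the scaling, to 0.24 when centred on the median of all genes and 0.17 by upper quartile.

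SQLE, squalene epoxidase (chr8:126010739-126034525, plus strand), catalyses a controlled step between squalene and lanosterol. Its level was 1.95 FPKM in 2U against 1.39 in 2T, and 1.21 in 4U against 2.12 in 4T. The treated and untreated libraries overlapped. SQLE was 1.41-fold lower at 2 h (log2 ratio -0.49) and 1.75-fold higher at 4 h (log2 ratio 0.81), neither of which reached 2-fold. With the untreated library of the other time as the reference, the log2 ratios were 0.19 and 0.12.

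LSS folds squalene epoxide into lanosterol, the first sterol (chr21:47608055-47648738, minus strand). It was at 3.54 FPKM in 2U against 5.07 in 2T, and 8.54 in 4U against 2.64 in 4T, so 4U was the highest library and 4T the lowest. LSS was 1.44-fold higher at 2 h (log2 ratio 0.52) and fell 3.23-fold at 4 h (log2 ratio -1.69). Like MVD, it was higher in 4U than in 2U, by 2.42-fold. With the untreated library of the other time as the reference, LSS at 2 h was lower and not higher, at a log2 ratio of -0.75, and the value at 4 h was -0.42, within 2-fold.

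DHCR7 makes cholesterol itself in the last step of one branch of the pathway (chr11:71139239-71163914, minus strand). Its level was 18.2 FPKM in 2U against 9.23 in 2T, and 30.1 in 4U against 8.81 in 4T. Both treated libraries lay below both untreated ones, and the treated values were close to each other. The gene was 1.97-fold lower at 2 h (log2 ratio -0.98), just inside 2-fold, and fell 3.42-fold at 4 h (log2 ratio -1.77). With the untreated library of the other time as the reference, both ratios passed 2-fold, at -1.70 for 2T and -1.05 for 4T.

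INSIG1, the feedback regulator in the endoplasmic reticulum (chr7:155089486-155101945, plus strand), was lower in both treated libraries. It stood at 20.4 FPKM in 2U against 6.69 in 2T, and 18.9 in 4U against 9.67 in 4T. The untreated libraries were close to each other, and the treated ones were well below them. INSIG1 fell 3.05-fold at 2 h (log2 ratio -1.61) and was 1.95-fold lower at 4 h (log2 ratio -0.96). With the untreated library of the other time as the reference, the log2 ratios were -1.50 for 2T and -1.08 for 4T. By the estimate above, about 270 reads lay behind INSIG1 in 2U and about 94 in 2T. At 2 h, 8.19% of genes compared had a lower ratio than INSIG1, and at 4 h 29.1%. Of the genes above, HMGCS1, FDFT1, LSS and DHCR7 overlap unnamed antisense RNA genes, and since the sources do not say that counting used the strand, reads of the partners cannot be told apart.

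INSIG1, FDFT1 and DHCR7 were thus 3 of the 6 members above 0 in all libraries whose treated values both lay below both untreated values. Over the 5199 genes with a mean of at least 1 FPKM and a value above 0 in all 4 libraries, 33.9% did so. None of the 6 members had both treated values above both untreated ones, which held for 24.7% of the genes. SQLE, MVD and LSS overlapped between the groups.

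More genes lay 2-fold apart between the untreated libraries than between the treated ones. Between 4U and 2U, 2 of 7 members were at least 2-fold higher (MVD and LSS), against 21.6% of 5328 genes. Only IDI1, which reached the minimum mean through 2U alone, was at least 2-fold lower (1 of 7, against 9.89%). Between 4T and 2T, 0 of 6 members were at least 2-fold higher, against 4.15% of 5206 genes, and 1 was at least 2-fold lower (MVD, 3.21-fold), against 5.19%. These comparisons share their libraries with those of treatment. The opposite directions of MVD and LSS at 2 h and 4 h thus went with a lower level in 2U than in 4U, while 2T was above 4T for both genes.

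The ratio at 4 h moved with the base composition of the transcripts. GC content was taken from the longest protein-coding transcript, which was found for 84.5% of the genes compared at 4 h. Ordered from the fifth of genes with the lowest GC content to the fifth with the highest, the median log2 ratios at 4 h were 0.99, 0.31, -0.47, -0.93 and -1.15. Across genes, which are not independent replicates, Spearman's correlation with GC content was -0.68 at 4 h and -0.24 at 2 h. It was 0.23 between 4U and 2U, and -0.45 between 4T and 2T, so libraries of the same treatment also differed along GC content. The part of GC content in the results was not tested.

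At 4 h the ratios of the members largely followed the order of their GC content. MVD, at 65.5% GC, had the lowest ratio, -2.62, where genes of like GC content had a median of -1.29. LSS and DHCR7 had the same GC content, 58.1%, and log2 ratios of -1.69 and -1.77. They too lay below genes of like GC content, whose medians were -0.98 and -0.95. FDFT1 (47.0%), SQLE (46.5%) and IDI1 (41.1%) had ratios of -0.12, 0.81 and 1.42. INSIG1 lay apart from this order, since its GC content of 44.8% is shared by genes whose median ratio was 0.61 while its own was -0.96. Over the 8 members, with HMGCS1 included, Spearman's correlation of the ratio with GC content was -0.90 at 4 h. Over the 6 members with a ratio at 2 h it was 0.60, of the opposite sign. These correlations share the same 4 libraries and describe so few genes that no more is read from them.

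**Figure D2:**
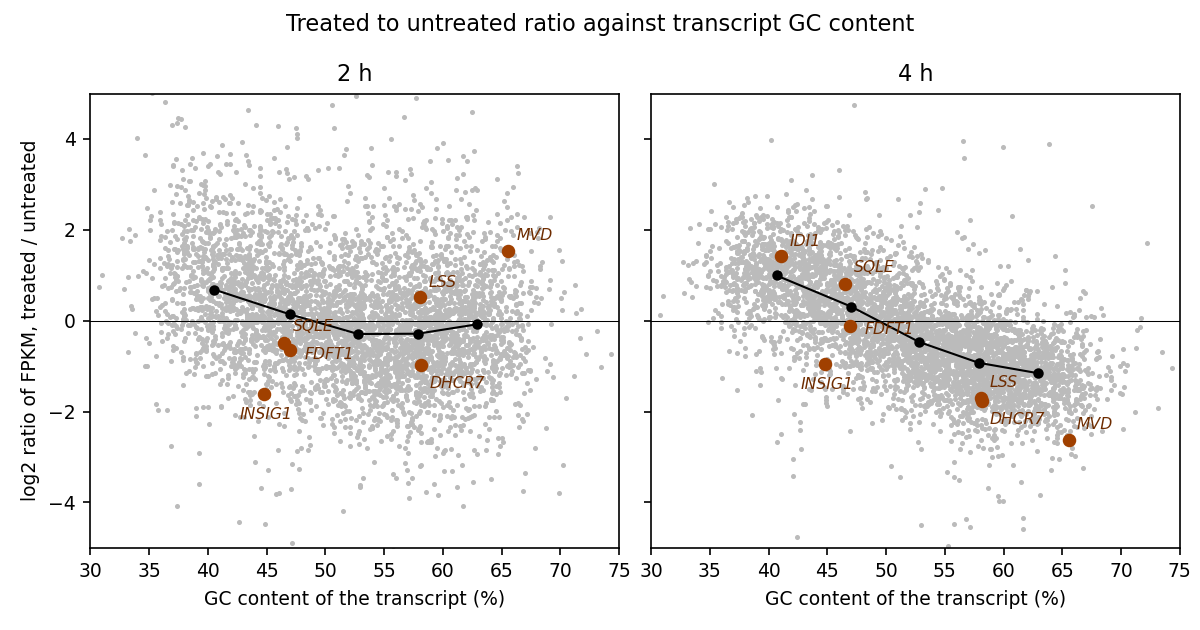
Log2 ratio of FPKM, treated over untreated, against the GC content of the transcript (%) at 2 h and at 4 h. Grey points are all genes with a mean of at least 1 FPKM, of which those beyond 5 on either side are outside the axis. The black line joins the medians of 5 equal groups by GC content, and orange points are members. At 4 h the black line falls from 0.99 to -1.15, and INSIG1, DHCR7 and FDFT1 lie below it at both times.

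The ratios were therefore also centred on the median of the 301 genes nearest in GC content, a step chosen after the trend was seen. INSIG1 then lay at -1.95 at 2 h and -1.57 at 4 h, past 2-fold at both times, with 4.66% and 3.58% of genes below it. MVD lay at 1.69 and -1.33. DHCR7 lay at -0.64 and -0.82, and LSS at 0.92 and -0.71, all within 2-fold. IDI1 lay at 0.34 at 4 h and no longer passed. FDFT1 lay at -0.81 and -0.35 and SQLE at -0.66 and 0.42. At 2 h, 1 of 6 members fell, against 17.8% of 4416 genes, and 1 of 6 rose, against 19.9%. At 4 h, 2 of 7 fell, against 10.5% of 4556 genes, and 0 of 7 rose, against 10.1%. INSIG1, DHCR7 and FDFT1 were lower at both times with either reference library, and again with this centring, with log2 ratios between -1.95 and -0.96 for INSIG1, between -1.77 and -0.64 for DHCR7 and between -0.81 and -0.12 for FDFT1. FDFT1 at 4 h was above 0 by the other scalings given with its values.

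Other enzymes of the pathway were described from lists of their own. Of 6 further genes of mevalonate and isoprenoid synthesis, 4 reached a mean of 1 FPKM. ACAT2, which joins acetyl-CoA units, was at 45.1 FPKM in 2U against 56.4 in 2T, and 44.2 in 4U against 71.4 in 4T. Both treated values lay above both untreated ones, with log2 ratios of 0.32 and 0.69, within 2-fold. MVK, the kinase that phosphorylates mevalonate, was at 0.498, 1.95, 3.13 and 2.87 FPKM in the same order. The low library was 2U, and the log2 ratio of MVK was 1.97 at 2 h and -0.12 at 4 h. In this list 2 of 3 genes with a ratio rose at 2 h (MVK and PMVK, the next kinase), against 22.6% of all genes compared, and 0 of 4 rose or fell at 4 h, against 16.4% and 27.7%. The medians were 1.63 and 0.18. With 4U as the reference at 2 h, MVK was at -0.68 and PMVK at 0.14, both within 2-fold.

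Of 10 further genes between squalene and cholesterol, 5 reached a mean of 1 FPKM. At 2 h, 2 of 5 fell, against 18.7% of all genes compared, and 0 rose, against 22.6%, with a median log2 ratio of -0.76. At 4 h, 3 of 5 fell, against 27.7%, and 0 rose, against 16.4%, with a median of -1.09. TM7SF2, a sterol reductase, was at 6.30 FPKM in 2U against 1.45 in 2T, and 3.02 in 4U against 1.42 in 4T, with log2 ratios of -2.11 and -1.09. C14orf1, now called ERG28 and thought to hold enzymes of sterol demethylation together, was at 19.2, 32.3, 28.1 and 34.6 FPKM in the same order and stayed within 2-fold. In 4 of these 5 genes both treated values lay below both untreated ones, against 33.9% of all genes. In 1, C14orf1, both lay above, against 24.7%. Centred by GC content, which was not found for C14orf1, 1 of the list fell at 2 h (TM7SF2), against 17.8% of genes. At 4 h 0 fell, against 10.5%.

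**Figure D3:**
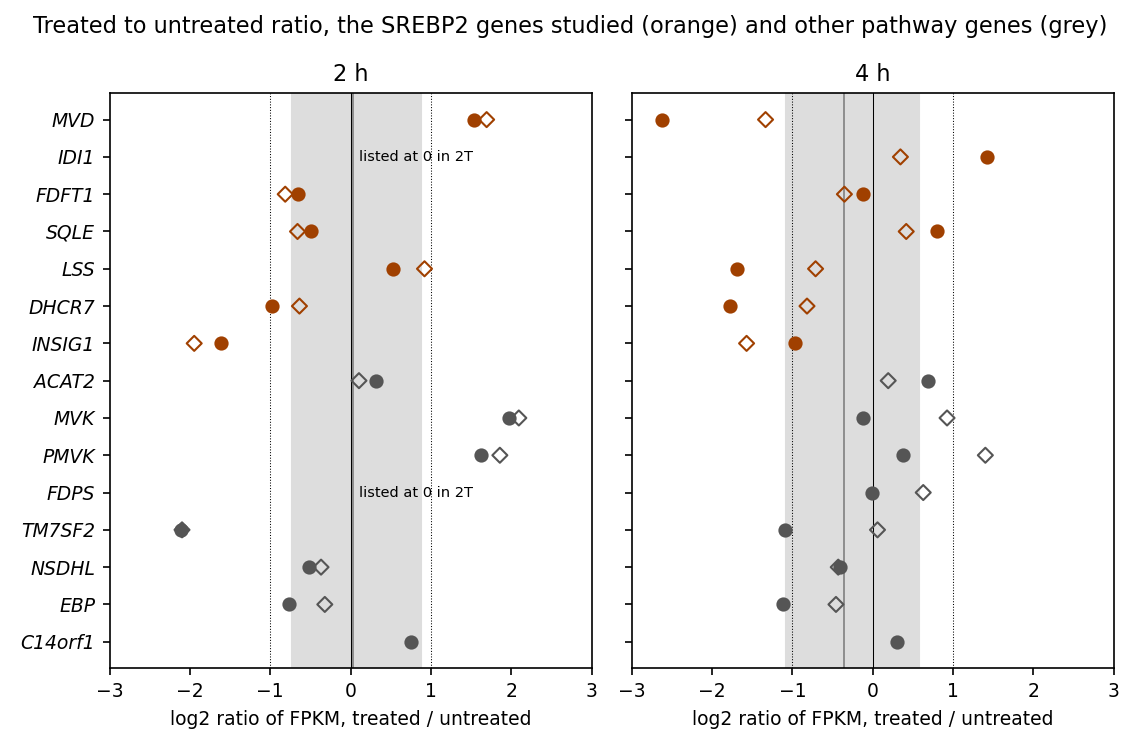
Log2 ratio of FPKM, treated over untreated, at 2 h and 4 h for the members with a mean of at least 1 FPKM (orange) and other pathway genes that reached it and are reported here (grey), with filled circles for ratios as deposited and open diamonds for ratios centred by GC content. Grey bands span the middle 50% of all genes, the thin grey line is their median and dotted lines mark 2-fold. INSIG1, DHCR7 and FDFT1 lie left of 0 in every case, as do NSDHL and EBP among the grey genes. MVD, LSS and SQLE change side between 2 h and 4 h.

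Of 6 further genes that control SREBP2, SCAP and MBTPS1 were the 2 that reached a mean of 1 FPKM. SREBF2, the gene of SREBP2, was at 0.288 FPKM in 2U against 0 in 2T, and 0.632 in 4U against 0.495 in 4T, and SREBF1, the gene of the related SREBP1, was at 0.516, 0.595, 1.49 and 0.936. INSIG2, the second INSIG protein, was at 0.174, 0.241, 0.381 and 0.530 FPKM. SCAP, the escort protein, was at 4.95 FPKM in 2U against 3.69 in 2T, and 8.50 in 4U against 3.14 in 4T, with both treated values below both untreated ones. It was within 2-fold at 2 h (log2 ratio -0.42) and fell at 4 h (log2 ratio -1.44). With the untreated library of the other time as the reference, SCAP was at -1.20 for 2T and, within 2-fold, at -0.66 for 4T. Centred by GC content, SCAP was within 2-fold at 4 h too, at -0.30. MBTPS1, one of the Golgi proteases, had log2 ratios of 0.07 and 0.06.

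Of 8 targets in sterol uptake and transport 5 had ratios, of which 1 fell at 2 h (TMEM97, log2 ratio -1.06) and 1 at 4 h (NPC1, a lysosomal cholesterol exporter, -1.33), against 18.7% and 27.7% of all genes compared. With the untreated library of the other time as the reference, TMEM97 at 2 h and NPC1 at 4 h were both at -0.27. SCARB1, a receptor for high density lipoprotein, had log2 ratios of 0.51 and -0.40, and NPC2, the partner of NPC1, -0.36 and 0.54. Of the 12 targets of SREBP1 in fatty acid synthesis 7 had ratios. At 2 h FADS2, a desaturase, rose (log2 ratio 3.06, from 0.143 FPKM in 2U) together with ELOVL5, an elongase (1.16), and FADS1 fell (-1.07), which makes 2 of 7 risen and 1 of 7 fallen against 22.6% and 18.7% of all genes. The value of FADS2 in 2U is below the lowest value of the 4 h libraries. With 4U as the reference at 2 h, all 3 lay within 2-fold: FADS2 at -0.57, ELOVL5 at 0.15 and FADS1 at -0.52. At 4 h 3 of the 7 fell, against 27.7%, FASN, the fatty acid synthase, being the lowest at -2.15. With 2U as the reference, FASN in 4T was within 2-fold, at -0.98. Centred by GC content, FASN lay at -0.89 and 2 of the 7 fell, against 10.5%. The median log2 ratios of the uptake list were -0.20 and 0.07, and those of the fatty acid list -0.17 and -0.68. Of 10 genes of the LXR pathway, which exports surplus sterol, 5 were listed at 0 in all libraries and 2 had a mean of at least 1 FPKM. NR1H2, the gene of LXR beta, had log2 ratios of 1.35 and -0.74, and at 2 h it was at -0.34 with 4U as the reference. NR1H3, the gene of LXR alpha, was at -0.81 at 4 h and listed at 0 in 2T.

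Housekeeping genes were used to see how far genes of every cell lay apart in these libraries. Of 15 such genes 14 had ratios, with medians of -0.05 at 2 h and 0.03 at 4 h. In both treated libraries 4 of the 14 lay lower than in both untreated ones, against 33.9% of all genes. In the other direction 5 lay higher, against 24.7%. EEF1A1, an elongation factor, was the highest at both times (2.93 and 2.41). POLR2A, the large subunit of RNA polymerase II, was the lowest at 4 h (-1.86).

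The genes outside these lists whose pattern over the 4 libraries was nearest to the median pattern of the 6 members above 0 in all of them were NPLOC4, SLC25A28, FAHD2B, IFRD2 and GTPBP6. Likeness was the Euclidean distance between log2 FPKM centred on each gene's mean, over 2906 genes with a mean of at least 5 FPKM, and it was between 0.11 and 0.15 for these 5. The members themselves lay from 0.48 (DHCR7) to 1.78 (MVD) from their median. The 5 genes are the nearest of 2906 and the members were not chosen by distance, so these distances do not measure how alike the members are. NPLOC4, a cofactor of the p97 ATPase, was at 24.6 FPKM in 2U against 16.5 in 2T, and 36.6 in 4U against 14.9 in 4T.

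The promoter letters of the members were read because the genes are grouped as targets of 1 factor. The sterol regulatory element of textbooks was searched on both strands as TCACNCCAC and as its shorter part CACCCCAC, from 250 bases before to 50 after each transcription start listed by RefSeq. Among 35116 promoters of that length 1.13% held the longer form and 2.79% the shorter. None of the 6 members searched (HMGCS1, MVD, IDI1, LSS, DHCR7 and INSIG1) held either form in this window, while the promoter of SREBF2 held TCACCCCAC, and within it the shorter form, beginning at position -133 counted from its start. The CCAAT box, which binds the factor NF-Y, was in 7 of the 10 promoters listed for these 6 members, at least 1 for each, and in 34.6% of all promoters. The box GGGCGG, which binds Sp1, was in 9 of the 10 and in 45% of all promoters. Matches are letters in a window and not binding sites, and a missing match says only that the letters are not there.

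The 250 bases before the start are shown for INSIG1, lower in both treated libraries, for MVD, whose direction changed, and for SREBF2, with the CCAAT boxes on either strand (CCAAT or ATTGG) and the sterol element in capitals. They were taken from RefSeq, are written on the strand of the gene and were placed in GRCh37 by exact match. INSIG1 is shown at chr7:155089338-155089587 (plus strand), MVD at chr16:88729500-88729749 (minus strand) and SREBF2 at chr22:42228859-42229108 (plus strand).
INSIG1: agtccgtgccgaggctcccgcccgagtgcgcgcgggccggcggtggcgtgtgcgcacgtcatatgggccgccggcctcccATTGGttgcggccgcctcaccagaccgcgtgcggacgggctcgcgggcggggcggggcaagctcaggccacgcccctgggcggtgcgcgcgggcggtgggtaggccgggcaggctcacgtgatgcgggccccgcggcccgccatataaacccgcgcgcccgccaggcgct
MVD: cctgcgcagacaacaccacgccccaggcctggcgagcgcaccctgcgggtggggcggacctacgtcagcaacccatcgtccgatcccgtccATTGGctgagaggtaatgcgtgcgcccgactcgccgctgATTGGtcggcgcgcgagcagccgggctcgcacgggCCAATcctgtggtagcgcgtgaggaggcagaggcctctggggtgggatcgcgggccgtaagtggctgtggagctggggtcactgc
SREBF2: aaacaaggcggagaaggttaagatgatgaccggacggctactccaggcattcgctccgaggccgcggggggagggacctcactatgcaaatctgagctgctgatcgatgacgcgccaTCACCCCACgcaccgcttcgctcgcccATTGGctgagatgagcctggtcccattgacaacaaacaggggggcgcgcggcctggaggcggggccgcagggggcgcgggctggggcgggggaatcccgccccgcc
MVD held 3 CCAAT boxes, INSIG1 and SREBF2 1 each in this window.

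Another readout lies in the small RNA libraries of the same study. Whether the first of their 2 batches came from the same cultures as the mRNA is not given in the sources used here. Introns of the SREBP genes carry a pair of microRNAs that lower sterol efflux and fatty acid oxidation: miR-33a lies within SREBF2 and miR-33b within SREBF1. Their mature sequences are shown with the seed, bases 2 to 8, in capitals, since the seed is shared. They are from RefSeq, at chr22:42296953-42296973 (plus strand) for miR-33a and chr17:17717211-17717230 (minus strand) for miR-33b, in GRCh37.
hsa-miR-33a-5p: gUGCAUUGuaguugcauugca
hsa-miR-33b-5p: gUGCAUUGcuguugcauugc

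SK-HEP-1 small RNA was sequenced in 2 batches of cultures, the first on SOLiD 3 and the second on SOLiD 5500xl, with 1 library per condition in each. miR-33a had 135 reads in 2U against 32 in 2T, and 20 in 4U against 5 in 4T (first batch), and 41, 16, 12 and 18 in the repeat batch. miR-33b had 66, 25, 8 and 2 reads, then 12, 6, 12 and 9 in the repeat. Both were thus highest in 2U of the first batch, and counts under about 20 set wide limits. As RPM, the reads scaled to the quality reads of each library, miR-33a was at 18.9, 4.16, 1.70 and 0.545 in the first batch, then at 1.95, 0.941, 0.594 and 1.28. miR-33b was at 9.25, 3.25, 0.679 and 0.218 RPM, then at 0.570, 0.353, 0.594 and 0.638.

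At 2 h both microRNAs were lower in the treated library of both batches. For miR-33a the ratio of treated to untreated RPM was 0.220 (exact 95% interval 0.145 to 0.325) for the first batch and 0.484 (0.253 to 0.881) for the repeat. For miR-33b it was 0.351 (0.212 to 0.564) and 0.620 (0.191 to 1.78), the last of which was within counting error of no difference. These intervals cover counting error only, since PCR copies of 1 molecule may be counted more than once. At 4 h the batches gave miR-33a on opposite sides of 1, a difference that was not tested: the ratio of miR-33a was 0.321 in the first (0.0942 to 0.882) and 2.15 in the second (0.979 to 4.89), and that of miR-33b 0.321 (0.0332 to 1.61) and 1.07 (0.400 to 2.78).

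With the batches as replicates, neither microRNA passed the test. In edgeR's quasi-likelihood fit over 259 microRNAs and the 8 libraries, chosen after these values were seen, 0 microRNAs (0%) passed an adjusted p of 0.05 at either time. At an unadjusted p under 0.05 there were 10 at 2 h and 3 at 4 h. With the batch as a replicate block the count was again 0, and 51 and 29 unadjusted. DESeq2 gave 0 as well, and 20 and 9 unadjusted. In the blocked fit the log2 ratio of miR-33a at 2 h was -1.82 (edgeR, adjusted p = 0.329) and that of miR-33b -1.32 (edgeR, adjusted p = 0.488). At 4 h they were 0.28 (edgeR, adjusted p = 0.877) and -0.25 (edgeR, adjusted p = 0.905). The blocked fit takes out the difference between the batches, so its p-values set the ratios against the spread that remains. The lower values at 2 h were thus not shown to exceed that remaining spread.

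**Figure D4:**
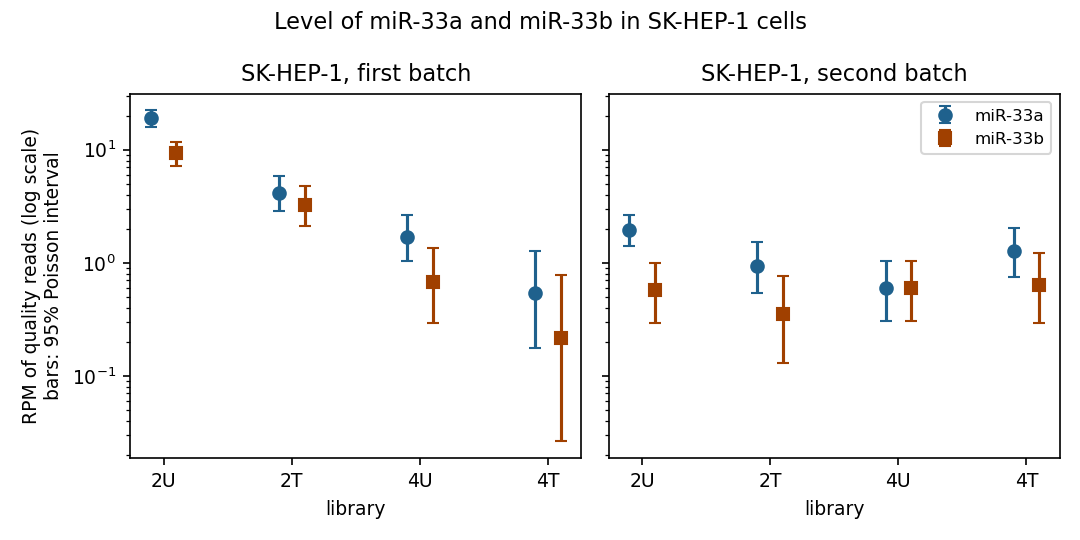
Reads scaled to the quality reads of the library (RPM, log axis) of miR-33a (circles) and miR-33b (squares) in each SK-HEP-1 small RNA library of the first and the second batch, with bars for the exact 95% Poisson interval of the count. In both batches 2T lies below 2U for both microRNAs, while at 4 h the order of 4T and 4U differs between the batches.

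Most microRNAs of these cells were lower after AcFBE, so the miR-33 values were set beside the rest. The median log2 ratio of all microRNAs counted in both libraries was -1.77 at 2 h and -1.56 at 4 h for the first batch. It was -1.15 and -1.02 for the repeat. At 2 h, miR-33a lay at -2.19 and -1.05 and miR-33b at -1.51 and -0.69, on either side of these medians. In the second batch at 4 h, 94.0% of 218 microRNAs had a lower ratio than miR-33a. Scaled to the microRNA reads of each library, the log2 ratio of miR-33a at 2 h was -0.10, and 0.28 in the repeat. miR-33b was at 0.58 and 0.64 on that scale. The direction at 2 h thus depended on the total that the reads were scaled to. In the mouse line BNL CL.2 no microRNA was listed under the names miR-33a, miR-33b or miR-33, which is not read as an absence.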

How the data were processed

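mRNA was measured in 4 SK-HEP-1 libraries (2U, 2T, 4U and 4T, 1 per condition) and small RNA in 12 libraries, 8 of SK-HEP-1 in 2 batches and 4 of BNL CL.2. Conditions came from the sample labels. The authors kept reads with a quality score of at least 20, mapped the SOLiD reads of poly(A) RNA to hg19 (GRCh37) with Bowtie and TopHat and deposited FPKM from Cufflinks; tool versions and the gene annotation are not given in the sources used here. For the mRNA libraries the labels name a SOLiD kit for total RNA, and the study's methods a PCR protocol adapted from single cells, and which of them was used is not known. PCR can change how well transcripts of different composition are represented. For small RNA the authors deposited counts of reads per known miRNA, with at least 2 reads each. Further fields of the mRNA table that hold the authors' own gene classes were not used.

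Log2 ratios of FPKM were computed as stated with the results, in Python 3.11.15 with numpy 2.4.6, pandas 2.3.3, scipy 1.17.1 and matplotlib 3.10.9, and checked on simulated data. FPKM do not give counts, so the depth behind a gene is unknown. In genes with 1 protein-coding transcript the product of FPKM and length moved in steps of about 0.22 in 2U and 0.2075 in 2T. There 57.5% and 63.9% of low values lay within 0.15 of a whole number of steps, where an even spread gives 30%, and the approximate reads of 2U and 2T rest on these steps. No clear step was found at 4 h, and whole reads were not recovered. GC content, transcript length and positions came from the GENCODE annotation in GRCh37. miRNA counts were scaled to the quality reads of each library as tabulated by the study, and intervals of counts and ratios are exact. A quasi-likelihood fit in edgeR 4.0.16 (R 4.3.3) used the microRNAs listed in both SK-HEP-1 batches with at least 10 reads over the 8 libraries, with library sizes from the quality reads and Benjamini-Hochberg adjustment, and DESeq2 1.42.0 was run beside it. The labels put 1 library of each condition in each batch, and the deviations of a batch from the group means correlated between conditions, with r between 0.37 and 0.66 across microRNAs, so the batch was also used as a replicate block. Each library summed to between 786224 and 845681 FPKM, and 8454 to 10691 of 22314 genes were above 0. The lower limit of the values differed between 2 h and 4 h, as given with the results. At 4 h the genes above 0 matched the study's own gene numbers (9550 in 4U, 9773 in 4T). At 2 h they did not: 10691 were above 0 in 2U and 8454 in 2T, while the study lists more genes for 2T than for 2U. The reason is not known, and every ratio at 2 h carries this difference.

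Named were the 8 genes, SREBF2, SREBF1, SCAP and INSIG2, the highest and the lowest ratio of each other list at each time, and the 5 nearest patterns. The other genes named were chosen after their values were seen. The genes, lists and measures were chosen with earlier results of these data known. FDFT1 and SQLE were left out of the promoter search, and protein sequences were not used here. Some genes of the lists are counted but not reported here by name. Alternatives were a pseudocount of 1, other minimum levels, other scalings and other folds, and, added later, GC centring, the other untreated library as the reference, the lower limit of the 4 h libraries at 2 h, and the fits across microRNAs.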

Additional observations from a re-analysis of the deposited data

Results flagged for a closer look

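For 3 genes the treated to untreated ratio pointed in opposite directions at 2 h and at 4 h, in 1 library per condition, and the difference was not tested. The log2 ratio of MVD went from 1.54 to -2.62, a difference of -4.16. That of LSS went from 0.52 to -1.69, a difference of -2.21. That of SQLE went from -0.49 to 0.81, a difference of 1.30. Over the 5199 genes with a ratio at both times, 34% had opposite signs, 37.9% were lower at both times and 28% were higher at both, and the SD of the difference was 1.40. With the untreated libraries exchanged, the difference was 0.79 for MVD, 0.33 for LSS and -0.074 for SQLE.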

How the results depend on the processing

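No paired fit could be made for the mRNA, which has 1 library per condition. The counts of members rest on 6 or 7 genes and 1 or 2 of them can move a count. As reported, 1 rose and 1 fell at 2 h, 1 rose and 3 fell at 4 h, 2 were higher and 1 lower in 4U than in 2U, and 0 were higher and 1 lower in 4T than in 2T. With 1.5-fold in place of 2-fold, 3 fell at 2 h, and 2 rose and 4 fell at 4 h. At that fold 3 were higher and 2 lower in 4U than in 2U, and 1 was higher and 2 lower in 4T than in 2T. With 3-fold, 0 rose at 2 h, 0 rose at 4 h and 1 was higher in 4U than in 2U. With a pseudocount of 1, 0 rose and 2 fell at 2 h, IDI1 then being counted (-3.48), 0 rose at 4 h, and 0 were lower in 4T than in 2T. With no minimum level, 2 rose at 4 h, HMGCS1 then being counted (1.01). With a mean of at least 5 FPKM, which keeps 3 members, 0 rose at 2 h, 0 rose and 1 fell at 4 h, 0 were higher and 0 lower in 4U than in 2U, and 0 were lower in 4T than in 2T. The median difference of the log2 ratios between 4 h and 2 h, -0.13 as reported, had the other sign under most alternatives. It was 0.53 with the pseudocount, 0.54 with the higher minimum, 0.26 centred on the median of all genes, 0.18 by upper quartile scaling, 0.38 with the other untreated library and 0.098 with GC centring, and it stayed below 0 with no minimum level, scaled to equal sums and with the 2 h values under 0.2 FPKM taken as 0. Centred on the median of all genes, which shifts ratios by 0.35 at 4 h, 2 fell at 2 h and 2 rose at 4 h. By upper quartile scaling 2 rose at 4 h, and scaled to equal sums, 2 were lower in 4T than in 2T. With GC centring, 0 rose and 2 fell at 4 h, and 1 was higher in 4U than in 2U. With the other untreated library as the reference, 0 rose and 2 fell at 2 h and 0 rose at 4 h, MVD reversed at 2 h (-0.94), IDI1 reversed at 4 h (-4.15), and the differences between times reversed for MVD (0.79), LSS (0.33) and SQLE (-0.074). Values that had been within 2-fold also changed sign there, namely LSS (-0.75) and SQLE (0.19) at 2 h and the difference of DHCR7 (0.66). FDFT1 at 4 h changed sign when centred on the median of all genes (0.24) and by upper quartile scaling (0.17). The cause was not tested for any of these. Scaled to the miRNA reads of each library, the log2 ratios of miR-33a in the first batch were -0.10 at 2 h and -0.19 at 4 h, and those of miR-33b 0.58 and -0.19. In the second batch they were 0.28 and 2.21 for miR-33a, and 0.64 and 1.21 for miR-33b. Both values of miR-33b at 2 h and that of miR-33a at 2 h in the second batch thus changed sign. Of 258 values of single members under an alternative, 28 moved by at least 1.5-fold and 14 had another sign than reported, 8 of these with the other untreated library.

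In the fit over both small RNA batches, the log2 ratios of miR-33a without a replicate block were -2.04 at 2 h and -0.31 at 4 h, and those of miR-33b -1.45 and -0.54. With the replicate block miR-33a at 4 h reversed, at 0.28, and the pairing changed no call. With the block and the miRNA reads, miR-33a was at 0.028 and 1.44 and miR-33b at 0.59 and 0.91, all reversed. With the block and TMM scaling, miR-33a at 4 h (1.33) and miR-33b at 2 h (0.13) and 4 h (0.76) reversed. Single libraries were also left out, in fits without the replicate block. This moved miR-33a between -3.45 and 0.38 at 2 h and between -1.05 and 0.62 at 4 h. It moved miR-33b between -3.76 and 1.63 at 2 h and between -1.50 and 0.0051 at 4 h. At 2 h both changed sign without 2U of the first batch. At 4 h both changed sign without 4T of the first batch, with 0.16 for miR-33a, and miR-33a also without 4U of the first batch (0.62). In these fits the lone library of a condition is assumed to vary like the others. In every fit of all 8 libraries, the number of microRNAs called was 0 at 2 h and 0 at 4 h.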
